A study of Arabidopsis thaliana with 64 samples.

Results

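The FWA line of Arabidopsis thaliana was compared with wild type on 4 cDNA arrays with 2 channels, out of 64 arrays in the series. The members are the arrays whose titles begin with FWA. Of these, 2 arrays carried RNA of plants kept under 8 h of light (FWA_8h) and 2 arrays RNA of plants kept under 16 h of light (FWA_16h). All FWA plants were 12 days old, and the comparator on each array was total RNA labelled WT. In each day length 1 array had its dyes swapped and 1 did not, and the labels number both as biological replicates 1 and 2. The swapped arrays were FWA_8h replicate 2 and FWA_16h replicate 1. The sources used here do not give the FWA allele, the tissue or how many plants were pooled. The FWA labels name no accession for the wild type, and among FWA and the other 12 lines below the label of FHA under 16 h alone does, as Ler. The other 12 lines set against wild type served to show where the FWA line stood apart. They were CO, FCA, FD, FE, FHA, FPA, FT, FVE, FY, GAI, GI and SOC1, at 12 days of age and with 4 arrays each, and their alleles are not given either. The 2 arrays of GI under 16 h carry 1 biological replicate number and were averaged, and FVE under 16 h was grouped by its titles, which its descriptions contradict.

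FWA encodes a homeodomain-leucine zipper transcription factor. In wild-type vegetative tissue the gene is kept silent by DNA methylation of repeats at its start, and it is expressed from the maternal copy in the endosperm of the seed. Late-flowering fwa plants known from other work carry an unmethylated epiallele that expresses the gene in leaves and shoots, where the FWA protein binds the flowering signal FT. No probe of the array is named for FWA (AT4G25530, chromosome 4), so 0 named probes report on the locus. The genes behind 7483 unnamed probes are not known here, so whether 1 of them reads FWA is not known either, and the label was not checked by its own locus. No probe was named for any gene on the lists of DNA methylation and silencing factors, of imprinted or methylation-silenced genes, or of class IV homeodomain-leucine zipper genes. Floral organ identity and seed storage markers likewise had no named probe. Of the root markers only EXPA7, a root hair expansin, was measured, at a mean log2 ratio of 0.01. The tissue could therefore not be checked by its defining markers.

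The arrays gave 13810, 13823, 13821 and 13816 ratios for FWA_8h replicates 1 and 2 and FWA_16h replicates 1 and 2. In that order the SD of the log2 ratios was 0.248, 0.210, 0.219 and 0.428, and 0.413%, 0.217%, 0.181% and 4.38% of the ratios lay beyond 2-fold. FWA_16h replicate 2 stood apart from the other FWA arrays, with 538 ratios above and 67 below 2-fold. Shares between 0.0868% and 5.14% occurred among the 64 arrays, with a median of 0.286%. Over probes the replicates correlated at r = 0.0751 under 8 h and r = 0.195 under 16 h. The highest r between FWA arrays was 0.298, for FWA_8h replicate 2 and FWA_16h replicate 1, which share the swapped orientation. These r are descriptions, since the points are the same probes throughout and whether arrays shared wild-type RNA is not given.

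A log2 ratio above 0 is taken as higher in FWA. That direction is likely but not settled. The descriptions compare FWA with WT and the unswapped arrays carry FWA in channel 1, but the direction of the deposited ratio is not given. FWA_16h replicate 2 correlated at r = -0.405 with GAI_8h replicate 1, an array of the same orientation. Against the 30 arrays of that orientation the median r of FWA_16h replicate 2 was 0.109 and the highest 0.479, and this was the 1 pair below -0.3. GAI_8h replicate 1 is the array with the 5.14% of ratios beyond 2-fold. With the sign turned every rise below is a fall, and all counts of rises and falls change places.

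Averaged over both day lengths, 36 probes rose and 39 fell in FWA at a Benjamini-Hochberg adjusted p under 0.05 (limma, a single fit over all lines). Together they make up 0.543% of the 13824 probes tested, with 0.26% for rises and 0.282% for falls. Of the 75 probes, 33 have a gene name and 42 do not, 65 had the same sign on all 4 arrays, and 3 had a mean beyond 2-fold. The mean of the other 12 lines had the same sign as FWA for 66 of the 75, which was not counted over all probes. The count rests on FWA_16h replicate 2: without that array 8 probes were called, and without FWA_16h replicate 1, which leaves replicate 2 alone for 16 h, 739 were called. Without FWA_8h replicate 1 the count was 26, and without FWA_8h replicate 2 it was 43. Of the 75 probes, 27 also had a dye term that passed the test, a larger share than the 3373 of all 13824 probes. Fitted on the 4 FWA arrays alone, which leaves 1 residual degree of freedom before moderation, limma called 0 probes, with 1087 at an unadjusted p under 0.05.

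The rise of largest size with a gene name was that of AT3G32240, a locus of chromosome 3 annotated as a pseudogene. Its log2 ratio was 1.64 and 2.34 on FWA_8h replicates 1 and 2 and 1.94 and 1.79 on FWA_16h replicates 1 and 2. All 4 arrays were beyond 2-fold and the day lengths overlapped, with the swapped array the higher of the 2 in each day length. The mean was 1.93 ± 0.08 (n = 4), a 3.80-fold difference with a limma adjusted p of 1.79e-18. Here and below ± is limma's SE, whose spread is pooled over all lines. The SD of the 4 FWA values was 0.30. The call held with any 1 of the 4 arrays left out, where the highest limma adjusted p was 5.83e-15. Of 84 measured genes annotated as pseudogenes, on 85 probes, AT3G32240 was the 1 rise and Sadhu4-2 the 1 fall, together 2.35% against 0.543% of all probes. Sadhu4-2 (AT1G03420) belongs to the Sadhu retroposons, and its log2 ratio was -0.13, -0.64, -0.19 and -0.37 on the 4 arrays, with a mean of -0.33 ± 0.08 (limma adjusted p = 0.036).

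In the other 12 lines AT3G32240 stayed near 0. The line means ran from -0.09 in FT to 0.04 in FY, and single arrays ran from -0.33 to 0.19. The lowest FWA array thus lay above the highest of the 48 arrays of the other lines. The difference between FWA and the mean of the other 12 lines was 1.94 ± 0.09 (limma adjusted p = 5.48e-18). The neighbourhood of AT3G32240 was hardly measured: of 100 genes, 50 to either side in the TAIR10.1 gene table, 1 had a probe, AT3G32130, at a mean log2 ratio of -0.08.

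A probe with no gene name, SP0000122314, gave the highest mean of the array. The gene it reads was not determined. Its log2 ratio was 1.01 and 2.75 under 8 h and 2.94 and 1.73 under 16 h, in the order of the replicates. All 4 arrays were at or above 2-fold. The 2 swapped arrays gave the higher values in both day lengths. The mean was 2.11 ± 0.14 (limma SE, n = 4, limma adjusted p = 7.26e-13), and it was called without any 1 of the arrays. The SD of the 4 FWA values was 0.90. The means of the other 12 lines lay between -0.08 in GAI and 0.21 in FCA, and FWA minus their mean was 2.11 ± 0.15 (limma adjusted p = 2.57e-12).

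**Figure D1:**
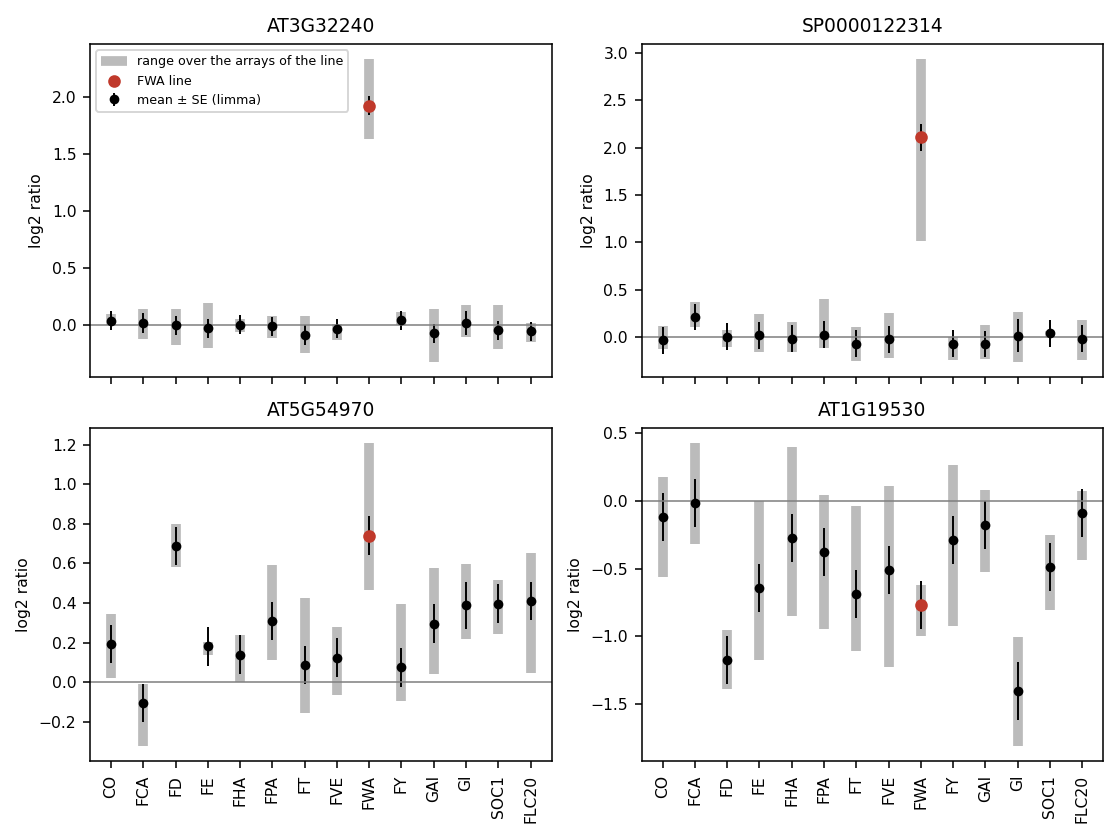
Log2 ratios of AT3G32240, SP0000122314, AT5G54970 and AT1G19530 in 14 lines (FLC20 was set against another comparator). Dots are limma means with SE and grey bars span the lowest to highest array of a line; FWA is in red, and AT3G32240 sits at 1.93 in FWA against at most 0.04 in the other 12.

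In all, 6 probes differed between FWA and the mean of the other 12 lines, all of them higher in FWA, and 0 were lower. This is 0.0434% of the probes tested, and 1220 probes had an unadjusted p under 0.05 in the same limma contrast. The 6 probes are also among the 75 called against wild type, 2 have gene names (AT3G32240 and AT5G54970), and 4 have none. Leaving out FWA_16h replicate 1 raised the count to 592 and leaving out FWA_8h replicate 2 raised it to 23. Without FWA_8h replicate 1 it was 5, and without FWA_16h replicate 2 it was 4.

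AT5G54970 encodes a protein of unknown function. It gave log2 ratios of 0.47 and 0.69 under 8 h and of 0.60 and 1.21 under 16 h. The 4 values were positive, and the highest came from FWA_16h replicate 2. The mean was 0.74 ± 0.10 (limma SE, n = 4, limma adjusted p = 3.29e-05), and the limma adjusted p was at most 0.034 with any 1 array left out. The gene also rose in FD, at 0.69, and its means in the other 12 lines ran from -0.11 in FCA upwards. FWA minus their mean was 0.51 ± 0.10 (limma adjusted p = 0.038), a call lost without FWA_8h replicate 1, FWA_8h replicate 2 or FWA_16h replicate 2. It was also lost with scaled arrays and with array weights. Over the alternative settings the difference ran from 0.34 to 0.68.

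The unnamed probe SP0000119117 gave log2 ratios of 1.19 and 1.04 under 8 h and of 2.44 and 0.00 under 16 h. The last value is a deposited ratio of exactly 1. So 3 of 4 arrays were above 2-fold, and whether FWA_16h replicate 2 measured this probe is not known. Its mean was 1.17 ± 0.16 (limma adjusted p = 3.74e-05), against line means of -0.15 in FT to 0.15 in FE elsewhere. The SD of the 4 FWA values was 0.998. By contrast, SP0000119123, the other unnamed probe with a large rise, gave 1.61, 1.39, 0.64 and 0.35 on the 4 FWA arrays, with a mean of 1.00 ± 0.18 (limma adjusted p = 0.0045). It was also called higher in 6 of the other 12 lines with its highest mean in FD, and FWA minus the mean of those lines was 0.21 (limma adjusted p = 0.850).

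**Figure D2:**
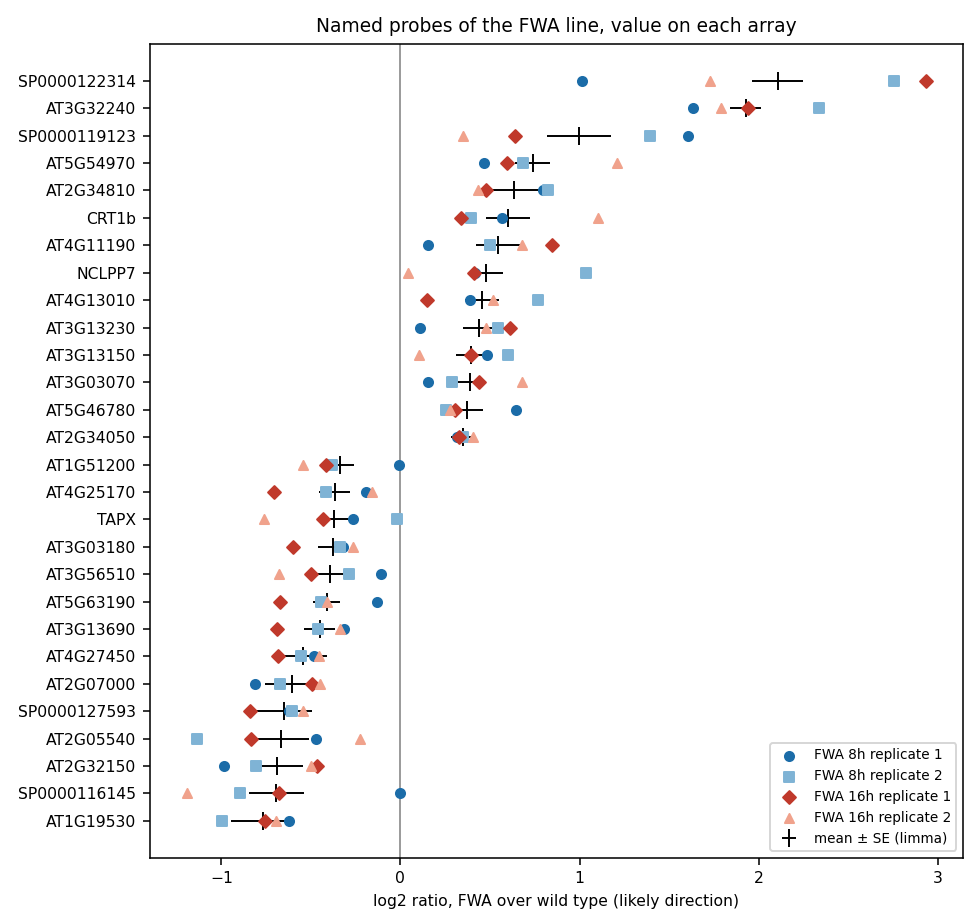
Log2 ratio on each FWA array for the 24 named and 4 unnamed probes with the largest called rises and falls of the same sign on all 4 arrays. Coloured points are single arrays and black bars the limma mean with SE; beyond AT3G32240 and SP0000122314 the means lie within 1.00 of 0 and many arrays overlap.

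AT2G34810 and CRT1b followed among the named rises. AT2G34810, a berberine bridge enzyme-like oxidoreductase, gave 0.79 and 0.82 under 8 h and 0.48 and 0.43 under 16 h, with a mean of 0.63 ± 0.15 (limma adjusted p = 0.046). Its values were higher under 8 h on both arrays, but the day length difference of -0.35 had a limma adjusted p of 0.720. CRT1b, a calreticulin chaperone of the endoplasmic reticulum, had a mean of 0.60 ± 0.12 on 1 probe, beyond 2-fold on FWA_16h replicate 2 and at 0.34 to 0.57 on the other arrays. Its other probe gave -0.05 and was not called, so the probes of CRT1b disagree. The called CRT1b probe had means above 0 in all of the other 12 lines, up to 0.48 in GI, and rose in 0. FWA minus the mean of those lines was 0.41 (limma adjusted p = 0.314).

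The other 8 of the 12 largest named rises with the same sign on every FWA array ran from 0.35 to 0.54 in the mean. They were AT4G11190, a dirigent protein, AT4G13010, a zinc-binding dehydrogenase, AT3G13230, a KH domain RNA-binding protein, AT3G13150, a pentatricopeptide repeat protein, AT3G03070, a subunit of mitochondrial complex I, AT5G46780, a VQ motif protein, AT2G34050, an ATP11 family protein, and NCLPP7. AT2G34050 was the most even of them, with 0.32 and 0.35 under 8 h and 0.33 and 0.40 under 16 h. AT4G11190 ranged from 0.15 on FWA_8h replicate 1 to 0.85 on FWA_16h replicate 1, and its other probe had a mean of -0.01. NCLPP7, a proteolytic subunit of an organellar Clp protease, gave 0.42 and 1.04 under 8 h and 0.41 and 0.04 under 16 h. It was called in the mean (0.48 ± 0.10) and under 8 h alone (0.73 ± 0.13, limma adjusted p = 0.011). None of these 8 passed the limma test against the mean of the other 12 lines, where adjusted p-values ran from 0.176 for AT4G11190 to 0.625 for AT5G46780.

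Among the falls the largest with 1 sign on all arrays was that of AT1G19530, a gene on the low oxygen response list. It gave -0.62 and -0.998 under 8 h and -0.76 and -0.70 under 16 h, with a mean of -0.77 ± 0.18 (limma adjusted p = 0.036). Its other probe gave -0.02, -0.07, 0.11 and 0.55, with a mean of 0.14, so only 1 of the 2 probes fell. AT1G19530 was lower still in FD (-1.18) and GI (-1.40), and FWA minus the mean of the other 12 lines was -0.25 (limma adjusted p = 0.778).

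Further falls included AT2G32150, a HAD-like hydrolase, at -0.69 ± 0.15, AT2G05540, a glycine-rich protein, at -0.67 ± 0.16, and AT2G07000 at -0.61 ± 0.15. AT2G32150 gave -0.99 and -0.80 under 8 h and -0.47 and -0.50 under 16 h, so the day lengths did not overlap, yet their difference of 0.41 had a limma adjusted p of 0.652. AT2G05540 also fell in 4 of the other 12 lines, down to -1.17 in FD. AT2G32150 and AT2G07000 each fell in 1 of them, and their lowest means were -0.70 and -0.77, both in FD. Falls of -0.34 to -0.45 were found for the kinase AT3G13690, the MA3 domain protein AT5G63190, the RNA-binding protein AT3G56510, the vesicle transport protein AT3G03180, the zinc finger protein AT1G51200, and AT4G25170. AT3G03180 had another probe at 0.16, and AT5G63190 had another at -0.03, neither of them called. In the other 12 lines AT5G63190 and AT1G51200 each fell in 2 and AT3G56510 in 1, while AT3G13690 and AT3G03180 fell in 0. AT5G63190 reached -0.57 in FD. The unnamed probes SP0000116145 (-0.69 ± 0.15) and SP0000127593 (-0.65 ± 0.16) completed the group.

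Photosynthesis genes were measured by 25 probes of 10 genes out of 42 on the list. Of these, 0 rose and 1 fell in the mean of both day lengths, which is 4% of the list against 0.543% of all probes called. The median of the list was -0.19, against 0.003 over all probes, and 23 of the 25 means lay below 0. The arrays differed: the list's median was 0.09 and -0.22 under 8 h and -0.22 and -0.32 under 16 h. On FWA_8h replicate 1, 17 of the 25 probes lay above 0, while on FWA_16h replicate 1, 23 lay below 0. The list was written with earlier results of these arrays known, and several of its genes are near-identical family members whose cDNAs may bind each other's RNA.

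The probe that fell was 1 of 2 for LHB1B2, a light-harvesting chlorophyll-binding protein of photosystem II. It gave 0.00 and -0.62 under 8 h and -0.56 and -1.25 under 16 h, with a mean of -0.61 ± 0.13 (limma adjusted p = 0.017). The ratio on FWA_8h replicate 1 was exactly 1, and the call was lost without FWA_8h replicate 2 or FWA_16h replicate 2. The other LHB1B2 probe had a mean of -0.35 and adjusted p of 0.202. LHCB4.2, an antenna protein of the same photosystem, gave 0.09, -0.80, -0.63 and -0.71, with a mean of -0.51 that missed the threshold (limma adjusted p = 0.067). TAPX, the thylakoid ascorbate peroxidase, was called at -0.37 ± 0.09, with -0.27 and -0.02 under 8 h and -0.43 and -0.76 under 16 h. Of the other 12 lines, 11 had means below 0 for the called LHB1B2 probe, 10 for LHCB4.2 and 7 for TAPX, and each probe fell in 1. LHCB4.2 reached -0.63 in FY. FWA minus those lines had limma adjusted p-values of 0.281, 0.532 and 0.358.

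PORB, an enzyme of chlorophyll synthesis, was read by 5 probes, none of which passed the test. Its probe of largest size gave 0.02 and -0.29 under 8 h and -0.91 and -0.77 under 16 h. PRK, the Calvin cycle enzyme phosphoribulokinase, had 3 probes with -1.05 to -1.32 on FWA_16h replicate 2 and -0.21 to -0.33 on FWA_16h replicate 1. Under 8 h they gave 0.12 to 0.60 on replicate 1 and -0.51 to 0.00 on replicate 2, and none was called (limma adjusted p from 0.327 to 0.621). The PORB and PRK probes of largest size had means of -0.49 and -0.46 in FWA, and reached -0.63 in FD and -0.57 in FY. The 3 probes of RCA, rubisco activase, had means from -0.46 to -0.01, and none was called.

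AT5G24490, a plastid ribosomal protein, had 7 probes, which moved alike. Under 16 h all 7 were below 0 on both arrays, from -1.07 to -0.25, and under 8 h they lay between -0.37 and 0. Under 16 h alone 3 of the 7 passed the test, with 16 h means from -0.89 to -0.42 over the 7. In the mean of both day lengths none was called, and the 16 h minus 8 h difference of the probe of largest size was -0.74 (limma adjusted p = 0.422). The same AT5G24490 probe had means below 0 in 11 of the other 12 lines, with the lowest at -0.63 in GI. It was called in 1 of them, FD, at -0.59. FWA minus the mean of those 12 lines was -0.28 for this probe (limma adjusted p = 0.705).

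The family of aluminium-induced proteins with YGL and LRDR motifs, 4 of whose 5 listed genes were measured on 9 probes, had 0 rises and 1 fall (11.1%, against 0.543% of all probes). Their median was -0.39, and 8 of 9 means lay below 0. AT4G27450, which also stands on the low oxygen list, had 4 probes with means of -0.74, -0.61, -0.54 and -0.39. The called one gave -0.48, -0.55, -0.68 and -0.45 (limma adjusted p = 0.048), and the probe at -0.74 had an adjusted p of 0.089. AILP1 gave -0.37, -0.92, -0.64 and -0.30, with a mean of -0.56 (limma adjusted p = 0.055), and its second probe had a mean of -0.23. AT4G27450 also had means below 0 in each of the other 12 lines, down to -1.48 in GI for its probe at -0.74 in FWA, and FWA minus those lines was -0.10 for that probe (limma adjusted p = 0.968).

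The low oxygen response list came to 2 of 15 genes, AT1G19530 and AT4G27450, on 6 probes, with 0 rises, 2 falls and a median of -0.58. That is 33.3% called against 0.543% of all probes, from 1 probe of each gene, while the other AT1G19530 probe had a mean of 0.14. Of 18 genes that rise in darkness or sugar starvation, 3 were measured on 6 probes and 0 were called. IVD and MCCA, of leucine breakdown, had means of -0.04 to 0.11, and AT3G15450 ranged from 0.68 on FWA_8h replicate 1 to -1.03 on FWA_16h replicate 1.

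The jasmonate list had 2 of 20 genes, on 3 probes, with 1 rise (AT2G34810) and 0 falls, against 0.26% rises among all probes. PDF1.2, a plant defensin that responds to jasmonate and ethylene, gave 1.34 and 2.02 under 8 h and 0.16 and 0.49 under 16 h on 1 probe. Its second probe gave 0.56 and 1.80 under 8 h and 0.33 and 0.66 under 16 h. All 8 values were positive, and on the first probe both 8 h arrays lay above both 16 h arrays. The means of 1.00 ± 0.29 and 0.84 missed the threshold (limma adjusted p = 0.089 and 0.130). In the other 12 lines the first PDF1.2 probe ran from -1.52 in FCA to 1.17 in FY.

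**Figure D3:**
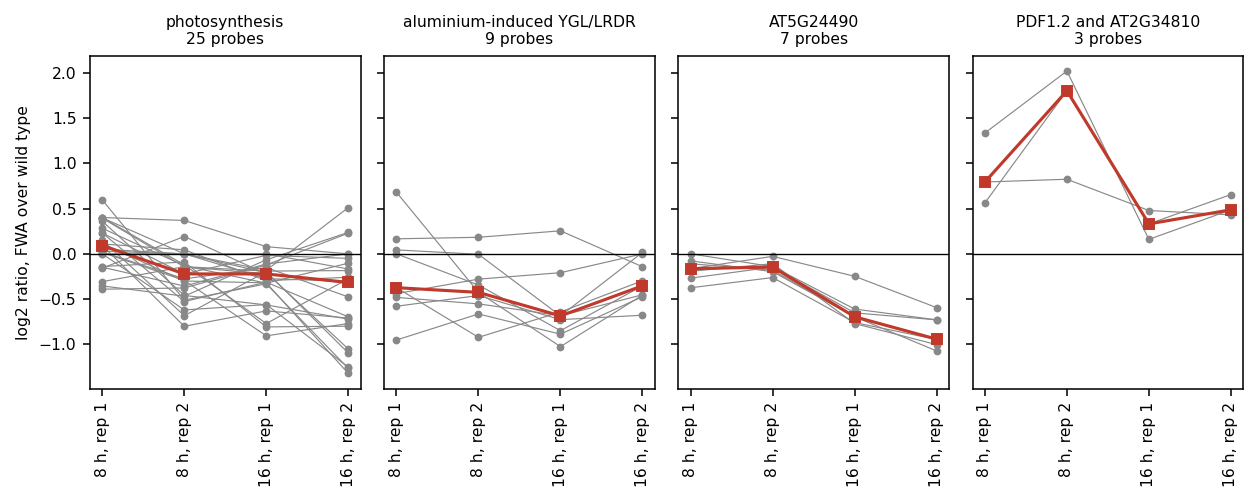
Log2 ratio of each probe (grey) and the median (red) on the 4 FWA arrays for the photosynthesis list, the aluminium-induced family, AT5G24490 and the jasmonate list. The 7 AT5G24490 probes lie between -0.37 and 0 under 8 h and between -1.07 and -0.25 under 16 h, and the lines join values of the same probe without implying an order of replicates.

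Flowering regulators were sparsely covered, with 3 of 41 listed genes measured, 1 probe each, and 0 called. LD, a homeodomain protein of the autonomous pathway, gave -0.18, 0.03, -0.25 and -0.39, with a mean of -0.19 (limma adjusted p = 0.199). SNZ, an AP2-like repressor of flowering, gave 0.00, -0.53, 0.21 and -0.22. FPA, an RNA-binding protein of the autonomous pathway, gave -0.07, -0.01, 0.00 and 0.00. FT, SOC1 and CO have no named probe, and no circadian clock or salicylate defence gene of the lists was measured. In the gibberellin list SLY1 and XERICO were measured, with means of 0.19 and -0.13, and DFR, of anthocyanin synthesis, had a mean of 0.35 (limma adjusted p = 0.262), neither list holding a call.

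Near FWA on chromosome 4, 14 of the 100 genes up to 50 places to either side had 18 probes. Of these 0 rose and 1 fell (5.56%, against 0.543% of all probes called), with a median of -0.04. The fall was AT4G25170, 48 places before FWA, at -0.19 and -0.41 under 8 h and -0.71 and -0.16 under 16 h, with a mean of -0.37 ± 0.09 (limma adjusted p = 0.042). AT4G25170 fell in 2 of the other 12 lines too and was negative in all 12, so FWA minus those lines was -0.14 (limma adjusted p = 0.742). AT4G25310 gave 1.67 on FWA_16h replicate 2 and between -0.18 and 0.09 on the other arrays on 1 probe, and its second probe gave 0.00 on that array.

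Tested apart, 8 h gave 9 called probes (0.0651% of those tested), 6 higher (0.0434%) and 3 lower (0.0217%). Under 16 h 434 probes were called (3.14%), 285 higher (2.06%) and 149 lower (1.08%). The difference between the day lengths itself was called for 0 probes (0%), with a lowest limma adjusted p of 0.244 and 1393 probes at an unadjusted p under 0.05. A larger count under 16 h is thus no shown difference between day lengths. The day lengths shared 3 called probes, which is 3 of 9 and 3 of 434. Without FWA_16h replicate 2 the 16 h count was 4, and without FWA_16h replicate 1 it was 1142. The 8 h count was 4 without FWA_8h replicate 1 and 27 without FWA_8h replicate 2. The difference was called for 655 probes without FWA_16h replicate 1, for 18 without FWA_8h replicate 2, for 2 without FWA_8h replicate 1 and for 1 without FWA_16h replicate 2.

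**Figure D4:**
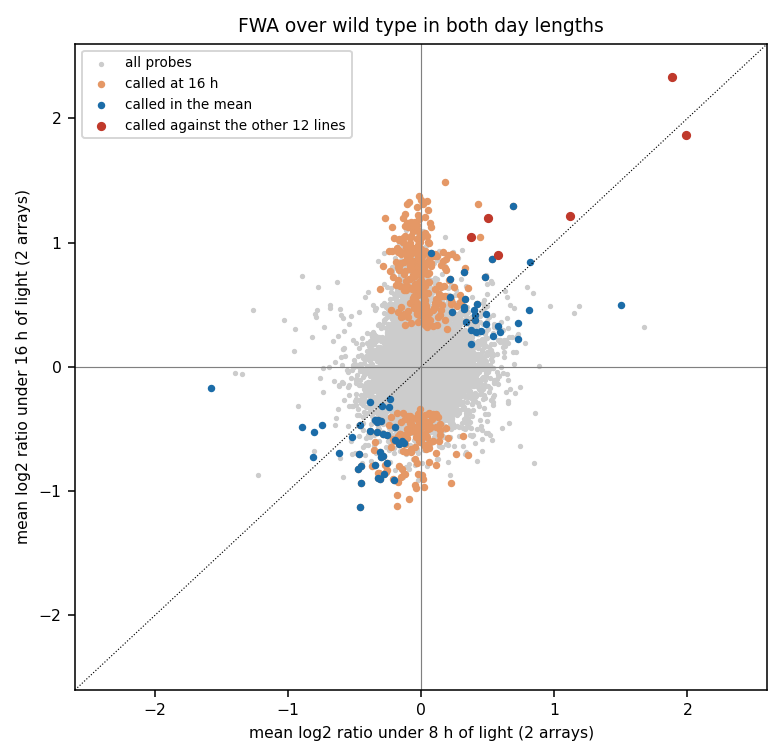
Mean log2 ratio of every probe under 8 h (x) and under 16 h (y), 2 arrays each. Probes called under 16 h alone form a vertical band near 0 on the 8 h axis, while the 6 probes called against the other 12 lines (red) are above 0 in both day lengths.

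Under 8 h alone the 3 called probes with a name were AT3G32240, at 1.99 ± 0.12, NCLPP7, at 0.73 ± 0.13, and AT5G63640, an ENTH and VHS domain protein, at -1.58 ± 0.28. AT5G63640 rested on FWA_8h replicate 1, with -3.10 there and -0.05 on replicate 2, and its other probe gave 0.08 and -0.02.

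Under 16 h the largest named rises after AT3G32240 rested on FWA_16h replicate 2. AT1G51250 gave 0.13 and 2.50 on replicates 1 and 2, AT5G48570, a peptidyl-prolyl isomerase of the FKBP family, gave 0.14 and 2.18, and AT5G41810 gave 0.35 and 1.96. The other probe of AT5G41810 gave 0.00 and 0.34. AT3G02390 gave 0.02 and 2.31, and its other 2 probes gave 1.77 and 1.87 on replicate 2 and 0.04 and -0.04 on replicate 1, so its 3 probes agreed on each array while the arrays differed. Of the 434 called probes, 387 had the same sign on both arrays, 380 had the larger absolute value on replicate 2, and 218 were beyond 2-fold there against 8 on replicate 1.

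The largest falls under 16 h were steadier in places. Hop1, a co-chaperone of Hsp70 and Hsp90, gave -0.64 and -1.22, with its other probe at 0.11 and 0.20. LHB1B2 gave -0.56 and -1.25, and AT5G24490 gave -0.77 and -1.003. AT5G66900, of the NRG1 group of immune helper proteins, gave -0.17 and -1.55, so it too rested on replicate 2.

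The high ratios of FWA_16h replicate 2 were unevenly spread over the probe numbers. In 137 full blocks of 100 consecutive probe numbers the median was 3 probes above 2-fold, the next highest block held 13, and the highest, starting at number 124100, held 25. That block has a median log2 ratio of 0.35 on FWA_16h replicate 2, and on the other 3 FWA arrays it holds 0 probes above 2-fold. It includes 21 of the 285 probes called higher under 16 h, among them those of AT1G51250, AT5G48570 and AT5G41810. Of all probes, 2.06% were called higher under 16 h. The block holds 0 of the 75 called in the mean, but only 0.543% of all probes were called there and many other blocks also hold 0. Whether probe numbers follow the layout of the slide is not given, and the part of this clustering in the 16 h calls was not tested.

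AT1G54410, a dehydrin family gene, has 50 probes that carry its name, and whether all of these probes read its transcript was not tested. Their SD was 0.18 and 0.14 on FWA_8h replicates 1 and 2, 0.11 on FWA_16h replicate 1 and 0.39 on FWA_16h replicate 2. On that last array they ran from -0.50 to 2.09 around a median of -0.01. The highest, SP0000124174, lies in the block named above, gave -0.09, -0.0024 and 0.17 on the other arrays, and was the 1 probe of the 56 on the cold and drought list called under 16 h, where 3.14% of all probes were called. In the mean of both day lengths that list, with 4 of 20 genes measured, had 0 calls and a median of -0.003.

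**Figure D5:**
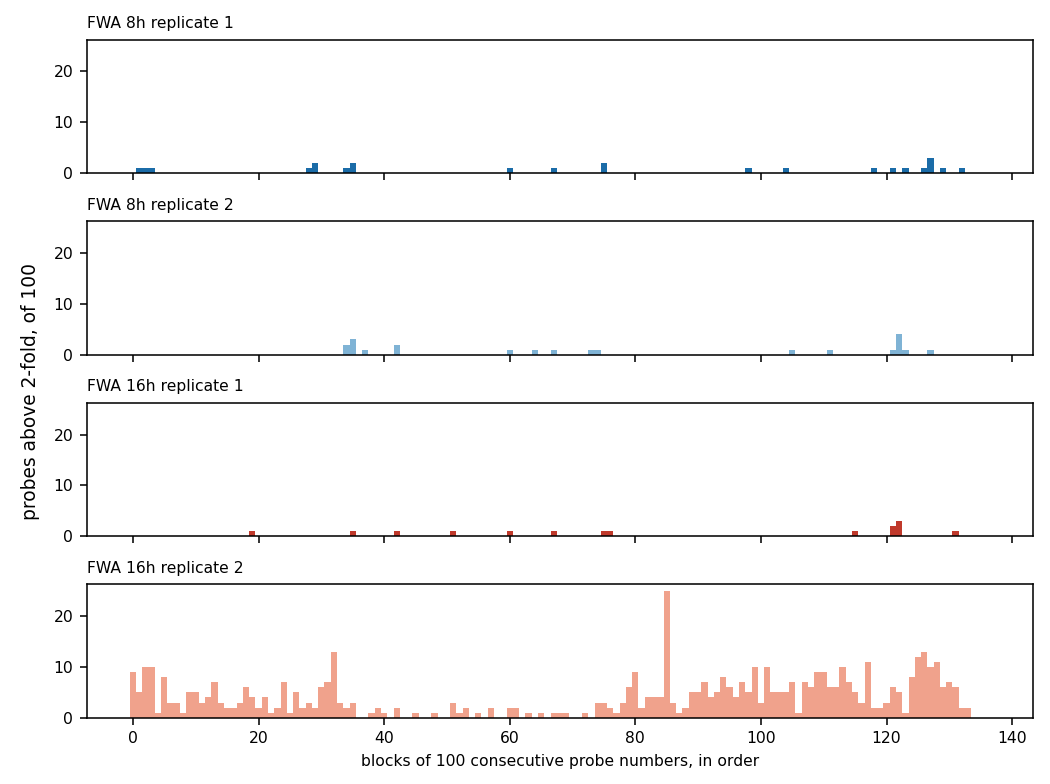
Number of probes above 2-fold in each of 137 blocks of 100 consecutive probe numbers, 1 panel per FWA array on a shared scale. FWA_16h replicate 2 reaches 25 in 1 block with a median of 3, while the other arrays reach at most 4.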

How the data were processed

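Total RNA of the FWA line and of wild type was compared on cDNA arrays with 2 channels. Each deposited value is a linear ratio between the channels, scaled so that every array has a median of 1. Per the labels' descriptions, the authors applied a spatial normalization (Wilson and others). The sources used here do not give the background correction, the spot filters, which way the ratio runs or how swaps were handled. A ratio of exactly 1 made up 10.3% to 11.6% of an array's values. Signal over background is unknown without scanner output, and the number of arrays limits the precision.

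Ratios were taken to log2. A single limma model (limma 3.58.1, R 4.3.3) was fitted to 63 arrays, since 2 arrays of 1 biological replicate of another line (GI under 16 h) were averaged. It held a mean per group and a dye term, with empirical Bayes moderation (5.17 prior and 30 residual degrees of freedom). Ratios of swapped arrays were taken as already turned by the authors, and AT3G32240 has the same sign in both orientations. Tests were two-sided and adjusted by Benjamini-Hochberg over 13824 probes, and a probe is called, or said to have risen or fallen, at an adjusted p under 0.05. Probes needed values on 48 arrays, which removed 0. Standard errors are limma's and use the same spread, pooled over all lines, so they can be smaller than the scatter of the FWA arrays. Whether the replicates came from separate plantings is not described. The p-values rest on the spread within groups over the arrays of all lines, not on the FWA arrays alone.

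The platform annotation names 1 gene for 6341 probes, several for 0 and none for 7483. The TAIR10.1 gene table matched 6322 of the named probes and missed 19. No coordinates were used. A line can share comparator RNA with other lines, which the labels do not describe.

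Members, gene lists and tests were chosen with earlier results of these data known. Named probes are those with the 12 largest rises and 12 largest falls in the mean (same sign on 4 arrays), 5 in each direction per day length (same sign on both arrays), all named probes called against the other 12 lines, up to 4 members of each list, and 2 unnamed probes in each direction. Sadhu4-2, RCA and AT4G25310 were added after their values were seen, and further probes of named genes are given beside them. Alternatives were the dye term, scaling, array weights, FWA arrays alone, a replicate block, ratios of exactly 1 as missing, robust moderation, averaging probes of a gene, and each array left out. The fit was tested on simulated data with known FWA changes. It recovered 57 of 67 changes of 0.5 on the log2 scale and made 12 false calls. Simulated noise was independent with 1 spread per probe on all arrays, so the test cannot cover an array of wider scatter such as FWA_16h replicate 2.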

Additional observations from a re-analysis of the deposited data

Results flagged for a closer look

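AT3G32240 differed between FWA and the mean of the other 12 lines by 1.94 on the log2 scale, with all 4 FWA arrays above every array of those lines. The unnamed probe SP0000122314 differed by 2.11 in the same contrast, and SP0000119117 by 1.17, the latter with 1 of 4 FWA arrays at a ratio of exactly 1. AT5G54970 differed by 0.51, a call lost when certain single arrays were left out, with scaled arrays and with array weights. Each of these was called by the limma test of the difference itself.

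A probe of AT5G48570 (SP0000124169) and 1 of 50 probes of AT1G54410 (SP0000124174) were below 0 on both 8 h arrays and above 0 on both 16 h arrays. The 16 h minus 8 h difference was 1.22 for AT5G48570 and 1.18 for the AT1G54410 probe. In the limma test of the difference the adjusted p was 0.260 and 0.267. On FWA_16h replicate 1 the values were 0.14 and 0.17, against 2.18 and 2.09 on FWA_16h replicate 2. The AT1G54410 probe stood at -0.0024 on FWA_8h replicate 2. Both probes lie in the block of probe numbers from 124100, where FWA_16h replicate 2 had 25 of 100 probes above 2-fold. How many of all probes share this sign pattern was not counted.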

How the results depend on the processing

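In the mean of both day lengths, where 75 probes were called, the count was 24 without the dye term, 37 with array weights, 0 in FWA arrays alone (1087 at an unadjusted p under 0.05), 119 with ratios of exactly 1 as missing, and 8 to 739 with 1 array left out. Under 8 h (9 called) it was 21 with scaled arrays, 27 with array weights, 0 in FWA arrays alone (623 unadjusted) and 4 to 27 with 1 array left out. Under 16 h (434 called) it was 269 without the dye term, 99 with scaled arrays, 31 with array weights, 0 in FWA arrays alone (1526 unadjusted) and 4 to 1142 with 1 array left out. For 16 h minus 8 h (0 called) it was 38 with ratios of exactly 1 as missing and 1 to 655 with 1 array left out. Against the other 12 lines (6 called) it was 29 with ratios of exactly 1 as missing and 4 to 592 with 1 array left out. Array weights were 0.626 for both FWA_16h arrays and 1.17 for both FWA_8h arrays, so they did not single out FWA_16h replicate 2. Robust moderation and averaging the probes of a gene kept all 5 counts within 1.5 times. The replicate block within day length gave 123 calls in the mean. The replicate 2 minus replicate 1 differences of FWA under 8 h and 16 h correlated at r = -0.130 as deposited and at 0.0748 less the dye term. The block lies within a day length, so this r cannot decide whether the numbers pair arrays. Against other groups of the same day length, less the dye term, r ran from -0.199 to 0.365 under 8 h. Under 16 h it ran from -0.419 to 0.253. With the numbers crossed, an alternative added after seeing the data, 118 probes were called in the mean. Of 31 named results called in the mean, 4 were called with any 1 array left out (AT3G32240, AT5G54970, SP0000122314 and SP0000119117), none was called in FWA arrays alone, and none changed sign. The cause of these shifts was not tested.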
